A study of Sus scrofa with 30 samples.

Results

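The comparison concerns the liver of female pigs of normal birth weight that were fed a restricted ration for 3 weeks, set against control pigs. It holds 6 of the 30 livers of the series, chosen by sample title: 3 restricted pigs (NR_T2) and 3 control pigs (NK_T2). All 6 were adolescent females that had weighed 1.4 to 1.6 kg at birth, were suckled without creep feed until weaning at day 28 and were then housed singly. From day 76 the NR pigs received 50% of the amount eaten ad libitum of a conventional diet of 13.6 MJ metabolisable energy per kg, and the NK pigs, by their labels, were controls. The livers were taken at the end of restriction, at day 97 in the sample labels and day 98 in the series text. Low birth weight pigs (0.8 to 1.1 kg at birth) of the same time point, controls (UK_T2, 3 pigs) and restricted (UR_T2, 3 pigs), serve for comparison. Arrays from before restriction (T1) and after refeeding (T3) only show how single probes and probe families vary. T1 was day 76 in the sample labels and day 75 in the series text. T3 was day 103 in the labels and day 131 in the series text. The whole liver was homogenised, so fewer cells of a type and less RNA per cell cannot be told apart. The labelled tissue was not checked against liver markers, because the probes and rows could not be given gene names here.

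The liver stores and releases glucose and fat, and a shortfall of feed is known to move it from making fat and storing glycogen towards burning fatty acids and making glucose and ketones. It also makes most plasma proteins, and it holds resident immune cells, among them B cells and plasma cells that make antibodies. An antibody heavy chain is read from a variable segment, a short diversity segment and a joining segment that are cut and joined in each B cell, and pig heavy chains use variable segments that are unusually alike. Probes against such segments therefore bind the transcripts of many B cell clones at once, and probes for related clones read overlapping RNA.

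Each array carried 60900 pig probes of 60 bases. Sets of probes with similar letters turned out to hold most of the calls described below, and the values of this comparison led to their choice. The sets themselves were built from sequence alone, by linking probes that align to each other. Read against general knowledge of antibody genes, their letters are those of the variable segment (190 probes, called the framework family here after the framework stretch shown), of the joining segment (31 probes, the joining family) and of the leader with the start of the variable segment (14 probes, the leader family). None of them could be given a gene name here, so these names are a reading of the letters. Rows of the authors' table, which carry human protein identifiers, were linked to framework probes PigEx0033509 (ENSP00000375024) and PigEx0007793 (ENSP00000390033). A further row was linked to joining probe PigEx0049637 (ENSP00000375041). These identifiers were matched to no gene name, and the values of these rows are not given here. The lowest-numbered members with the shared stretch are printed 5′ to 3′, with the stretch of 12 letters that more probes of the family hold than any other such stretch in capitals and the other letters in lower case.

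Framework probe 1: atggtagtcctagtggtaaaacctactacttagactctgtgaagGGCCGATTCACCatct
Framework probe 2: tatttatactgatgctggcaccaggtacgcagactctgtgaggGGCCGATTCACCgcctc
Framework probe 3: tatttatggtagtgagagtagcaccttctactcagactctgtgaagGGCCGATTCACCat
Joining probe 1: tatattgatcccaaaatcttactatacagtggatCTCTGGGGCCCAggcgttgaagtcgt
Joining probe 2: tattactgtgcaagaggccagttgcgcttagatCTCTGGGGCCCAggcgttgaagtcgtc
Leader probe 1: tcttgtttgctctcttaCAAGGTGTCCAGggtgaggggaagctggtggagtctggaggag
Leader probe 2: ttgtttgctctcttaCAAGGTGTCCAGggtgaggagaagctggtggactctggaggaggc

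The framework letters GGCCGATTCACC stood in 50 of the 60900 probes (0.0821%), all 50 in the framework family, where they are a minority of the 190. The joining letters CTCTGGGGCCCA stood in 39 probes (0.0640%), 29 of them in the joining family and 10 in none of the 3. The leader letters CAAGGTGTCCAG stood in 15 probes (0.0246%), among them all 14 of the leader family. The reverse complements stood in 0, 1 and 1 probes. Linked framework probes were 93.5% identical over a median of 46 bases, and linked joining probes 97.9% over 38 bases. Probes this alike can bind the same RNA, so the members of a family are not independent measurements.

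Of the probes of each of the 6 arrays, 61.6% to 74.3% had a signal well above background, and the 75th percentile of the signal ran from 363 to 634. NR_T2 replicate 3 stood apart: its 75th percentile and its share of probes above background were the highest of the 6, and 1334 probes were above background on that array alone of the 30, against at most 403 on any other. Across probes, which are not independent replicates, NK_T2 arrays correlated with r of 0.978 to 0.984, NR_T2 arrays with 0.981 to 0.984, and NK_T2 with NR_T2 arrays with 0.977 to 0.985. These ranges overlap, so arrays of the same feeding did not stand out as more alike. The arrays lay on several slides and were scanned in more than 1 session, and slide 5 was the only slide with both feedings (NK_T2 replicates 2 and 3 and NR_T2 replicate 2).

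The first question was whether any measured transcript differed between restricted and control livers. In the authors' table of 19864 rows, each named by a human protein identifier, limma called 0 rows (0%) at an adjusted p under 0.05 on the 6 arrays. At an unadjusted p under 0.05 there were 1142 rows (5.75%), 443 higher and 699 lower in restricted pigs. The smallest adjusted p was 0.831. The middle of the rows lay at -0.04 on the log2 scale, and 90% of them between -0.60 and 0.62. Differences over 2-fold were more frequent among dim rows. Of the 5507 rows with a mean signal under 10, 109 were over 2-fold higher and 46 over 2-fold lower, and of the 6180 rows from 10 to 100, 117 and 105 were. Of the 5000 rows from 100 to 1000, 35 and 22 were, and of the 3177 rows at 1000 and over, 14 and 11. All 3 NR pigs lay above all 3 NK pigs in 812 rows (4.09%) and below them in 1425 rows (7.17%).

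**Figure D1:**
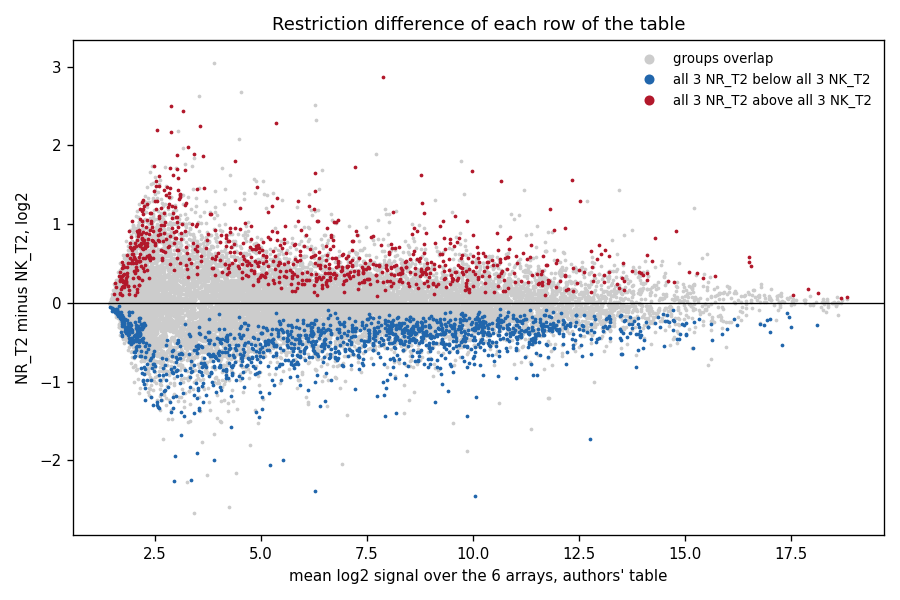
Each point is a row of the authors' table, with its mean log2 signal over the 6 arrays on the horizontal axis and NR_T2 minus NK_T2 (log2) on the vertical axis. Red points are the 812 rows and blue points the 1425 rows whose groups do not overlap; 0 rows passed limma's adjusted p, and the points spread wider at low than at high signal.

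At the level of single probes, 37436 were well above background on all 3 arrays of NK_T2 or of NR_T2 and were tested in limma with the 12 arrays of T2. Of these, 0 (0%) passed the adjusted threshold. An unadjusted p under 0.05 was reached by 3686 (9.85%), of which 2028 were higher in restricted pigs (5.42%) and 1658 lower. The smallest adjusted p was 0.443. All 3 NR pigs lay above all 3 NK pigs for 2453 probes (6.55%) and below them for 2834 (7.57%). For UR minus UK, in low birth weight pigs, the same fit called none of the probes (0), with 1740 (4.65%) at an unadjusted p under 0.05. For detection, 78 of the 60900 probes were well above background on all NR arrays and on no NK array, and 1 probe showed the reverse. NR_T2 replicate 3 had 74.3% of its probes well above background, against 61.6% to 65.2% on the other arrays of the comparison. The part of that array in these 2 counts was not tested. A fit of the 6 arrays alone called 1 probe (0.00267%), PigEx0007346, described below, and no probe when NK_T2 replicate 1 or 3 or NR_T2 replicate 1 or 2 was left out. With slide as a block, 244 probes (0.652%) were called, 237 higher in restricted pigs (0.633%) and 7 lower. This number went to 0 when either NK_T2 replicate 1 or NR_T2 replicate 2 was left out. It lay between 195 and 251 when any of the other 10 arrays was left out, but these 10 fits were not all separate. UK_T2 replicate 3 was alone on slide 4 at T2, so leaving it out returned the same fit (244). Leaving out UK_T2 replicate 1 or 2 gave the same count (251 and 251). So did leaving out NR_T2 or UR_T2 replicate 3, the only T2 arrays on slide 3 (195 and 195).

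The antibody-type families held 222 of those 244 calls (91%), although they made up 0.617% of the probes tested. Every one of their 231 tested probes had a higher mean in restricted than in control pigs. Without the slide block, limma called 0 of them, and 223 had an unadjusted p under 0.05. Because their probes share sequence and the families were picked out by these calls, the counts describe the arrays and carry no test of the families.

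The framework family had a median signal, as log2 above or below each array's 75th percentile, of -1.68, -0.80 and -0.80 in the 3 control pigs and of 0.03, 0.89 and -0.63 in the 3 restricted pigs. The restricted pigs lay above the controls without overlap, but NR_T2 replicate 3 exceeded the nearest controls by little and NR_T2 replicate 2 stood far above the rest. The group means were -1.09 ± 0.51 for NK and 0.10 ± 0.76 for NR (SD, n = 3), a difference of 1.19, or 2.28-fold. Leaving out NR_T2 replicate 2 gave a difference of 0.79, and leaving out replicate 3 gave 1.56. Within slide 5 alone, NR_T2 replicate 2 stood 1.69 above the mean of the 2 controls of that slide. The difference was 1.16 with quantile normalization and 0.99 with normexp background correction.

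Among the 187 framework probes tested, the difference ran from 0.45 to 1.81 with a median of 1.23, against a median of 0.01 over all probes tested. All 3 NR pigs lay above all 3 NK pigs in 139 of the 187, against 6.55% of all probes. With slide as a block, 181 were called, against 0.633% of all probes called higher, and the median difference was 1.92. Without NR_T2 replicate 2 that block called 0 of them, and without NR_T2 replicate 3 it called 155. The members moved together over all 30 arrays: 172 of the 190 correlated with the family median at r over 0.9, and 2 at r under 0.5, over arrays that share scaling and RNA labelling.

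Framework probe 3 read -3.93, -3.27 and -3.90 in the controls and -2.28, -1.48 and -3.01 in the restricted pigs. Its difference was 1.44 ± 0.35 (SE), with a limma adjusted p of 0.443, and 1.99 with an adjusted p of 0.0211 with slide as a block. Framework probe 2 read -3.64, -2.97 and -2.81 in the controls and -1.78, -1.07 and -2.67 in the restricted pigs. In both, replicate 2 was the highest restricted pig and replicate 3 the lowest, close to the controls.

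The joining family, which reads the segment shared by rearranged heavy chains, had a median signal of -2.05, -1.57 and -1.25 in the controls and -0.76, 0.24 and -1.43 in the restricted pigs. Here the groups overlapped, since NR_T2 replicate 3 lay between the controls. The means were -1.62 ± 0.40 and -0.65 ± 0.84 (SD, n = 3), a difference of 0.97. Leaving out NR_T2 replicate 2 gave a difference of 0.53, and leaving out replicate 3 gave 1.36. Of the 30 probes tested, 25 had an unadjusted p under 0.05 (5.42% of all probes, higher), 6 had NR above NK without overlap (6.55% of all probes), and the slide block called 27 (0.633% of all probes, higher). Joining probe 2 read -3.29, -2.54 and -2.42 in the controls and -1.51, -0.63 and -2.48 in the restricted pigs, a difference of 1.21 ± 0.44 (SE, limma adjusted p = 0.443).

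The leader family, which reads the start of the heavy chain, had a median signal of -1.70, -0.83 and -0.70 in the controls and 0.09, 0.82 and -0.71 in the restricted pigs. The groups met at their edges, with NR_T2 replicate 3 just below the highest control. The means were -1.08 ± 0.54 and 0.07 ± 0.77 (SD, n = 3), a difference of 1.14. All 14 probes were tested, with differences of 1.04 to 1.31. All 14 had an unadjusted p under 0.05, against 5.42% of all probes on the higher side. In 8 the NR pigs lay above the NK pigs without overlap, against 6.55% of all probes, and the slide block called 14, against 0.633%. Leader probe 2 read -1.46, -0.80 and -0.70 in the controls and 0.10, 0.90 and -0.70 in the restricted pigs.

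**Figure D2:**
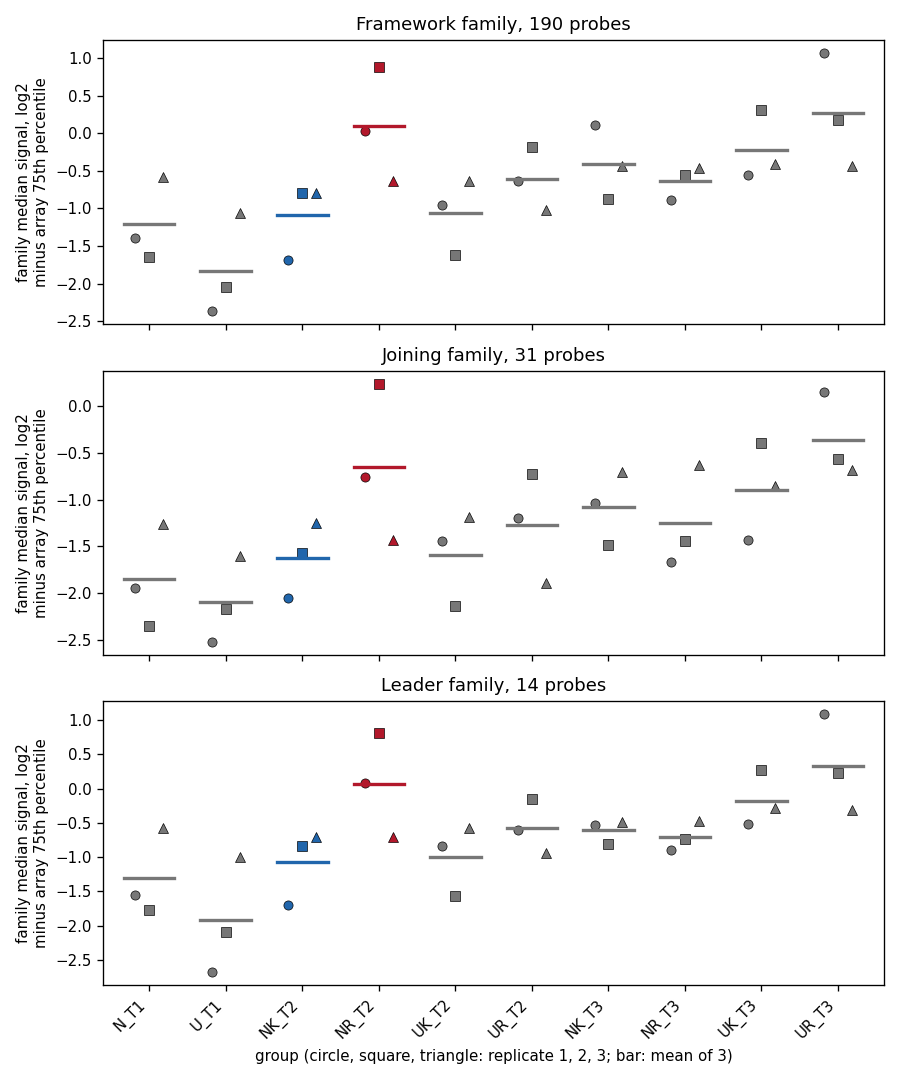
Each panel plots the median signal of a family (log2 minus the array's 75th percentile) for every pig in the 10 groups, with NK_T2 in blue, NR_T2 in red and bars at the mean of 3. The framework family lies at -1.68 to -0.80 in NK_T2 and at -0.63 to 0.89 in NR_T2, and single pigs of other groups reach from -2.37 to 1.07.

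The spread of these families between pigs was wide everywhere. Before restriction, the framework family ran from -1.65 to -0.58 in N_T1 and from -2.37 to -1.06 in U_T1. After refeeding it lay at -0.40 ± 0.50 in NK_T3 and -0.64 ± 0.23 in NR_T3, so the order of the means was the opposite there, with groups that overlap. The only arrays above 0.5 among all 30 were NR_T2 replicate 2 and UR_T3 replicate 1, and both lay on slide 5, as did NK_T2 replicates 2 and 3 at -0.80. The part of the slide in the difference was not tested beyond the block and the within-slide value.

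In low birth weight pigs, the framework family lay at -0.95, -1.62 and -0.63 in the controls and -0.63, -0.18 and -1.02 in the restricted pigs, which overlap, and all 3 UR pigs lay above all 3 UK pigs for 7 of the 187 tested probes (background 5.22%). The median difference of its tested probes was 0.49 for UR minus UK, against 1.23 for NR minus NK. It was 0.33 against 1.06 in the joining family and 0.44 against 1.16 in the leader family. The difference between the birth weights was tested for each probe: 5 of the 187 framework probes had an unadjusted p under 0.05, a share close to the 2.98% of all probes (1114 of 37436), none of the other 44 did, and the smallest adjusted p was 1. With slide as a block, UR minus UK gave 0 calls in the 3 families. The medians for UR minus UK were then 0.91, 0.86 and 0.89 in the framework, joining and leader families. Those for NR minus NK were 1.92, 1.73 and 1.8.

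Of the 16 other families of 10 or more similar probes, 12 had at least 5 probes tested. Their median differences for NR minus NK lay between -0.16 and 0.38, and the slide block called 0 of their probes. The largest of them, with all 186 probes tested, had a median difference of 0.12. Beyond the antibody-type families, the slide block called 22 probes, 15 higher and 7 lower.

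**Figure D3:**
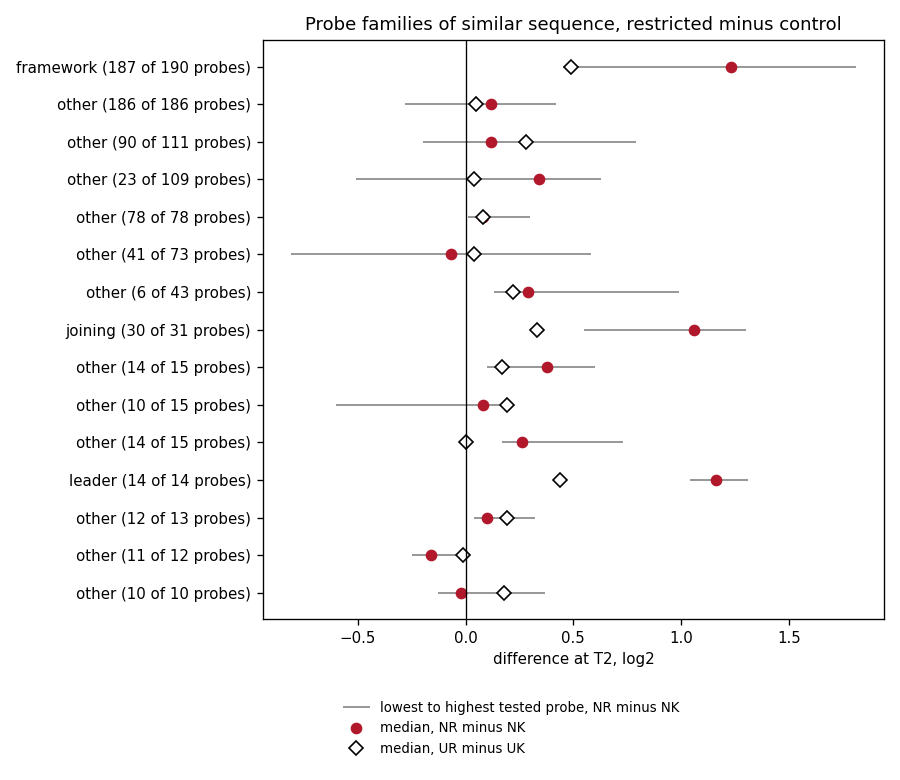
Each line is a family of probes with similar letters, from its lowest to its highest tested probe for NR minus NK at T2 (log2), with red points at the median for NR minus NK and open diamonds at the median for UR minus UK. The framework, joining and leader families have medians of 1.23, 1.06 and 1.16, and the other 12 families lie between -0.16 and 0.38.

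The rows and probes named next were chosen after their values were seen, as those of largest difference or smallest p in each direction among items whose groups do not overlap. Rows were also limited to those with a mean of at least 6 on the log2 scale in either group, and probes to those well above background on all 6 arrays, so that every rank given here holds within these limits. None of the rows passed the test in any fit. Their identifiers are human protein identifiers that the files do not pair with gene names. Equality of values linked 3 of the 4 rows to a single probe on all 12 arrays of T2 and 1 row to a pair of probes. The probe letters are given so that each row can be traced.

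PigEx0027486, of row ENSP00000285381: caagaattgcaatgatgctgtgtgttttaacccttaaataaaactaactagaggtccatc
PigEx0025273, of row ENSP00000378972: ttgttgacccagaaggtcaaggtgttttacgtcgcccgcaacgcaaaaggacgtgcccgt
PigEx0004529, of row ENSP00000262713: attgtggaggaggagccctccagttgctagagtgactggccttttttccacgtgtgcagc
PigEx0060405, of row ENSP00000266646: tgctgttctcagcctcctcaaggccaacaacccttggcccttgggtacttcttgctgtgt
PigEx0060406, of row ENSP00000266646: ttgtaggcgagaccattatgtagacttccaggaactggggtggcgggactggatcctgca

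Within these limits, row ENSP00000266646 had the smallest p of the lower rows, and it ranked 6 by p among all rows. Its signal was 905, 889 and 853 in the control pigs and 462, 362 and 480 in the restricted pigs. The controls lay within a narrow band and every restricted pig lay far below it, 2.04-fold on average (-1.03 ± 0.17 on the log2 scale, SE; unadjusted p = 0.000721, limma adjusted p = 0.831). In low birth weight pigs it was 577, 414 and 518 in the controls and 276, 250 and 264 in the restricted pigs, again without overlap (-0.92 ± 0.16, SE; adjusted p = 0.983 in limma on the 12 arrays of T2, from which all low birth weight values of rows come). The differences in the 2 birth weights were not found to differ (-0.11 between them, adjusted p = 1).

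Row ENSP00000262713 had the largest difference of the lower rows within these limits. Its signal was 2553, 1800 and 3305 in the controls and 588, 256 and 619 in the restricted pigs, a gap of -2.45 ± 0.41 on the log2 scale (SE, limma adjusted p = 0.831), or 5.46-fold. Low birth weight pigs did not divide this way, with 428, 1976 and 1041 in the controls and 237, 2865 and 490 in the restricted pigs (-0.47 ± 0.84, SE). The difference between the birth weights was -1.98 with an adjusted p of 1.

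Within the same limits, row ENSP00000378972 had the smallest p of the higher rows, and it ranked 5 by p among all rows. Its signal was 187, 297 and 291 in the controls and 812, 936 and 621 in the restricted pigs, 3.08-fold higher (1.62 ± 0.26 on the log2 scale, SE; unadjusted p = 0.00062, limma adjusted p = 0.831). In low birth weight pigs the values were 189, 240 and 619 in the controls and 577, 391 and 871 in the restricted pigs, and the groups overlapped.

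Row ENSP00000285381 had the largest difference of the higher rows within these limits, 7.33-fold (2.87 ± 0.70 on the log2 scale, SE; limma adjusted p = 0.831). The controls read 56.0, 59.7 and 201 and the restricted pigs 1449, 550 and 333. The spread within each group was wide, with SDs of 1.04 and 1.08 on the log2 scale, and both low birth weight groups lay across the same range (84.9, 215 and 680 in the controls; 201, 528 and 517 in the restricted pigs).

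**Figure D4:**
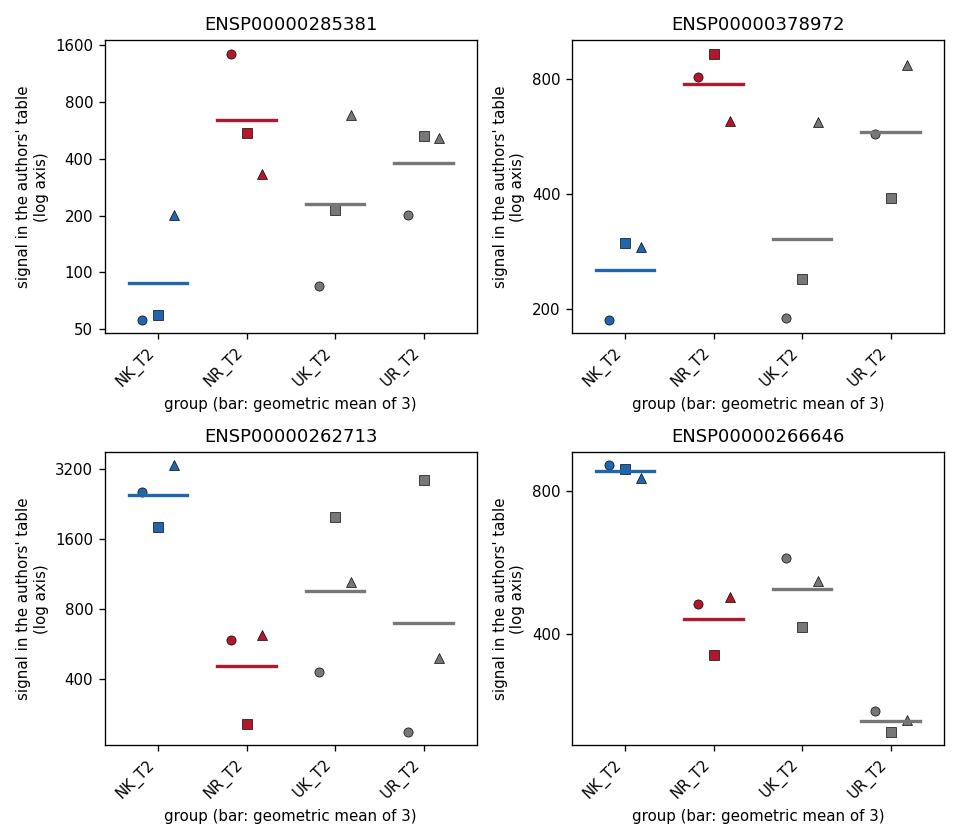
Each panel shows the signal of a row of the authors' table (log axis) in the 12 pigs of T2, with NK_T2 in blue, NR_T2 in red, circles, squares and triangles for replicates 1 to 3 and bars at the geometric mean. The groups NK_T2 and NR_T2 do not overlap in any of the 4 rows, and UK_T2 and UR_T2 do not overlap in ENSP00000266646 alone.

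The scanner probes show how these items vary outside the comparison. The probe with the smallest p in the fit of 12 arrays was PigEx0060406, of the pair linked to row ENSP00000266646. The row equalled this probe on 4 of the 12 arrays of T2 and PigEx0060405, whose own values are not given here, on 8. As log2 above or below the 75th percentile it read 1.06, 0.98 and 0.92 in the controls and -0.15, -0.32 and -0.05 in the restricted pigs, a difference of -1.16 ± 0.16 (SE; unadjusted p = 1.32e-05, limma adjusted p = 0.443). UR minus UK was -1.07 ± 0.16 (adjusted p = 0.93). At the other times the probe was far more variable, from -2.73 to 0.87 at T1 and from -3.19 to -0.54 at T3, so its tight values at T2 were not seen in every set of arrays.

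PigEx0004529, the probe of row ENSP00000262713, read 2.57, 1.98 and 2.89 in the NK_T2 pigs and 0.39, -0.82 and 0.44 in the NR_T2 pigs (-2.48 ± 0.80, SE; limma adjusted p = 0.443). Pigs of T1 read -0.71 to 0.56 and pigs of T3 read -1.28 to 0.06. All 3 NK_T2 pigs lay above these ranges, and the NR_T2 pigs lay within the range of T1 but for replicate 2. Low birth weight pigs of T2 fell on both sides whatever their feed, with 0.08, 2.30 and 1.35 in the controls and -0.79, 2.83 and 0.28 in the restricted pigs.

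The higher probe with the smallest p was PigEx0031472, which is shown with the called probe PigEx0007346 because both were past the threshold in a fit with slide as a block.

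PigEx0031472: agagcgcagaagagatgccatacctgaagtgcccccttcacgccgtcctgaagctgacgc
PigEx0007346: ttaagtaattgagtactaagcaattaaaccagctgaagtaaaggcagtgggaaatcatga

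PigEx0031472 read -1.34, -1.85 and -1.87 in the controls and -0.13, -0.55 and -0.52 in the restricted pigs. The difference was 1.29 ± 0.19 (SE; unadjusted p = 2.91e-05, limma adjusted p = 0.443). With slide as a block it was 1.28 with a limma adjusted p of 0.0203. That call was kept in 2 of the 12 fits that left out 1 array. In 1 of these 2 the array was UK_T2 replicate 3, alone on its slide at T2, so that fit only repeated the full one. In the other it was UR_T2 replicate 2 (limma adjusted p = 0.0394). Low birth weight pigs showed a smaller gap without overlap, from -0.75, -1.02 and -1.14 in the controls to -0.39, -0.44 and -0.60 in the restricted pigs (0.50 ± 0.19, adjusted p = 0.93). Set against each other, the birth weights differed by 0.79 in this gap, with an unadjusted p of 0.0141 and an adjusted p of 1.

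PigEx0007346 read -1.77, -1.95 and -1.54 in the controls and 1.11, 1.19 and 1.18 in the restricted pigs, 7.53-fold higher. The adjusted p was 0.0118 in limma on the 6 arrays alone and 0.443 in the fit of 12 arrays, which also took in the spread of UK_T2 (SD 1.58) and UR_T2 (SD 1.08). On the 6 arrays, the call was kept in 1 of the 6 fits that left out 1 array, with adjusted p-values of 0.0470 to 0.163. With slide as a block the difference was 3.75 with a limma adjusted p of 0.0354. That call was kept in 4 of the 12 fits that left out 1 array. The fit without UK_T2 replicate 3 only repeated the full one, and those without UK_T2 replicate 1 or 2 gave the same value (0.0275). Without NK_T2 replicate 1 the limma adjusted p was 0.19. The probe took high and low values in most other groups as well. UK_T2 held 0.96, -1.81 and -1.73, and UR_T2 held 0.82, 1.67 and -0.47. Before any restriction N_T1 already held -1.06, 1.56 and -2.04, and U_T1 held 1.75, 1.52 and -5.69. After refeeding, NK_T3 held 2.01, -0.99 and 2.65 and NR_T3 held 1.40, 0.85 and -1.52. The clean division of NK_T2 from NR_T2 was therefore not repeated in the other groups, and in 6 of the other 8 groups pigs on the same feed fell on both sides of 0.

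**Figure D5:**
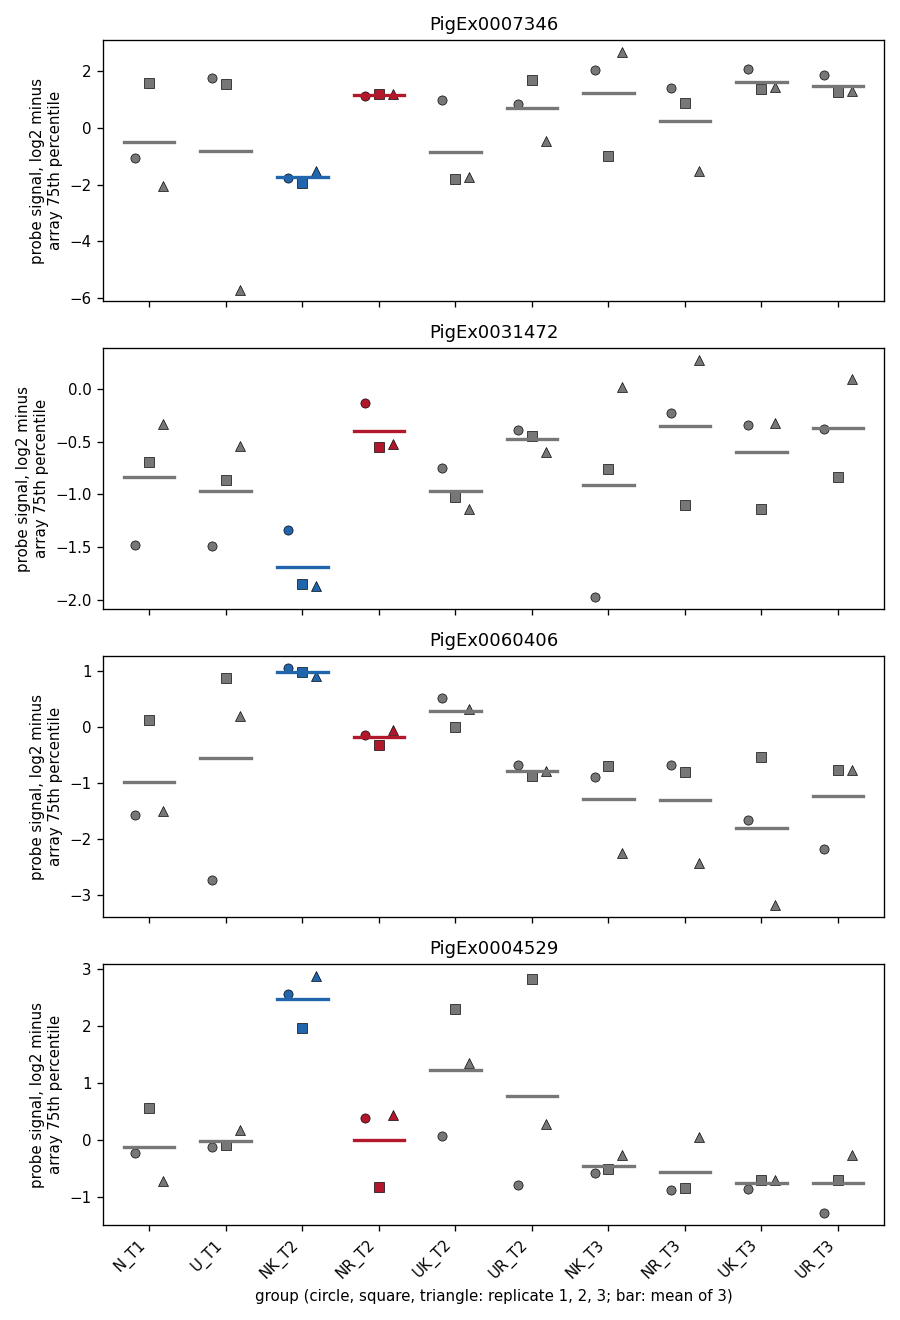
Each panel shows a probe's signal (log2 minus the array's 75th percentile) in all 30 pigs by group, with NK_T2 in blue, NR_T2 in red and bars at the mean of 3. PigEx0007346 separates NK_T2 (-1.95 to -1.54) from NR_T2 (1.11 to 1.19) but takes both high and low values at T1, and PigEx0004529 is high in all 3 pigs of NK_T2 only.

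Restriction in normal birth weight pigs was set against restriction in low birth weight pigs in a test of the difference over the authors' table. limma called 0 of 19864 rows (0%), and 675 (3.40%) had an unadjusted p under 0.05, 317 with a larger and 358 with a smaller value in normal birth weight pigs. The 2 differences rest on different pigs, but their arrays partly shared slides. Slide 1 held replicate 1 of NK_T2 and of UK_T2 and replicate 2 of UR_T2. Slide 2 held replicate 1 of NR_T2 and of UR_T2 and replicate 2 of UK_T2. Slide 3 held replicate 3 of NR_T2 and of UR_T2. Of the 812 rows without overlap and higher in NR, 64 were also higher without overlap in UR, and 28 were lower (3.45%). The 64 are 7.88% of the 812 and 8.13% of the 787 such rows in low birth weight. Of the 1425 lower rows, 159 were also lower in UR, and 18 were higher (1.26%). The 159 are 11.2% of the 1425 and 15.6% of the 1020 in low birth weight. Over all rows, 3.96% were higher and 5.13% lower in UR without overlap. Over all probes, 5.22% were higher and 6.05% lower in UR without overlap. Of the 2453 probes higher in NR, 218 were also higher in UR (8.89%) and 57 lower (2.32%), and of the 2834 lower in NR, 442 were also lower in UR (15.6%) and 34 higher (1.2%). More items thus lay on the same side in both birth weights than on opposite sides. The part of the shared slides in these counts was not tested.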

How the data were processed

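Total RNA was Cy3-labelled and hybridised, 1 liver per array, in 1 colour, per the labels' protocols. The processed signal is an intensity that Feature Extraction 10.5.1.1 background-subtracted on each array, per the file headers. The table that the authors deposited holds intensity with its making unstated, and its log2 was taken here. After quantile normalization of the processed signal within each T2 birth weight, 7228 of its rows (36.4%) equalled 1 probe on all 12 arrays (within 0.06 units plus 0.1%). It was therefore used for differences within a birth weight, and its levels in the 2 birth weights, normalized separately, are set side by side only as values.

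Probe values are log2 of the processed signal minus the array's 75th percentile, without control spots, with outlier spots missing (85 probes tested had one on the 6 arrays). Differences were tested two-sided in limma 3.58.1 (R 4.3.3) with Benjamini-Hochberg adjustment over all features. The table was fitted on 6 arrays and probes on 12, with a mean per group. Replicates are different animals, per the series text, and 3 arrays a group limit the precision. Slide and scan were read from the file headers. Probe families link plus-strand blastn 2.17.0 alignments (at least 30 bases, E up to 1e-8).

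Same-numbered NK and NR arrays deviated from their group means with correlations of 0.135, 0.161 and 0.074, and differently numbered arrays with -0.215 to 0.094. These values do not settle whether the numbers pair pigs. The main fits did not pair them, and fits with replicate as a block are given below. With that block, the smallest limma adjusted p of the probes was 0.0813. The planned rule for named genes, the pathway lists and the marker lists could not be applied, since the rows' protein identifiers were matched to no name here. Members and lists were chosen with earlier results of these data known. Fits were tested on simulated data in which 200 features were shifted. With a shift of 1 on the log2 scale, the fit of the table recovered 0 of them and the fit of probes 19 (9.5%). With a shift of 2, they recovered 134 (67%) and 179 (89.5%). A difference of 1 on the log2 scale could therefore go uncalled here. The shares recovered also depend on 200 features being shifted together, so they are not the power for a single row. Rows with differences of -2.45 and 2.87 had a limma adjusted p of 0.831.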

Additional observations from a re-analysis of the deposited data

Results flagged for a closer look

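Spots for the synthetic ERCC control RNAs were well above background on 26.7% of the 420 such spots on NR_T2 replicate 3. On the other 5 arrays of the comparison the share lay between 0.714% and 2.62%, and on the other 29 arrays of the series between 0% and 12.1%. This signal lies in control spots that entered no comparison. Whether these RNAs had been added to any sample is not given in the sources used here. The array also had the highest share of pig probes above background of the 6. The framework family differed by 1.56 without this array and by 1.19 with it.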

How the results depend on the processing

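Rows called in the authors' table stayed at 0 under all 14 alternatives (12 arrays, replicate block, slide block, the dimmest rows left out, a pseudocount of 16, median centring, an intensity trend, array weights and each array left out). Rows at an unadjusted p under 0.05 went from 1142 to 1843 with the slide block, to 1184 with the replicate block, and to 672 to 1515 with 1 array left out, where 672 came without NK_T2 replicate 3. Probes called went from 0 to 1 on the 6 arrays alone and to 244 with slide as a block; they stayed at 0 with the replicate block, scan block, all 30 arrays, quantile normalization, normexp, other filters, array weights and each array left out. Probes at an unadjusted p under 0.05 went from 3686 to 1464 with all 30 arrays, to 4693 with the replicate block, and to 1938 (without NK_T2 replicate 3) to 5145 with 1 array left out. With quantile normalization 1499 of 3469 such probes were higher, against 2028 of 3686.

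Alternatives with 2 changes were chosen after seeing the data. The slide block with all 30 arrays called 10 probes (2326 at an unadjusted p under 0.05), and 11 without NK_T3 replicate 1. With 1 array of T2 left out, the slide block called 0 without NK_T2 replicate 1 or NR_T2 replicate 2, 205 and 212 without NK_T2 replicates 2 and 3, 202 and 195 without NR_T2 replicates 1 and 3, 251, 251 and 244 without UK_T2 replicates 1 to 3, and 217, 202 and 195 without UR_T2 replicates 1 to 3; probes at an unadjusted p under 0.05 fell to 1228 without NR_T2 replicate 2 and 2244 without NK_T2 replicate 3. On the 6 arrays with 1 left out, 0 to 2 probes were called, 2 without NK_T2 replicate 2 and 1 without NR_T2 replicate 3, and 1472, 2230 and 2410 had an unadjusted p under 0.05 without NK_T2 replicate 3, NR_T2 replicate 1 and NR_T2 replicate 3.

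The test of the difference between birth weights called 0 to 1 rows with an array left out (1 without NR_T2 replicate 2, NR_T2 replicate 3 or UK_T2 replicate 1) and 0 with the slide or replicate block. Each of these rows had group means under 11 signal units, and the cause was not tested. Named rows, probes and families reversed under none of their alternatives. For rows and probes this was partly fixed by their choice among items whose groups do not overlap. Without a block, leaving out 1 array cannot reverse such a difference. The families were also picked out by calls in these data. The joining family went from 0.97 to 1.65 within slide 5, to 0.53 without NR_T2 replicate 2 and to 1.36 without NR_T2 replicate 3; the cause was not tested. Named genes and gene lists were not run, since no row could be named. Signals near background limit the dim rows.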
